A study of Drosophila melanogaster with 4 samples.

Results

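The genes described here are *bowl*, *drm* and *odd* of the *odd-skipped* family and the NET family genes *elB* and *noc*, which are 5 zinc finger genes on chromosome arm 2L. The regions are the 5 stretches of arm 2L that the study drew as panels for these genes, together with the stretch between the *drm* and *odd* windows and the stretch between the *elB* and *noc* windows. Every interval of the deposited peak lists that reached into one of these regions was taken. This gave 83 of 10892 *scrib1*+*ab* peaks and 59 of 8881 *ab* peaks, 142 of 19773 peaks in all. The panels were drawn by the study for genes it had selected in part by their Abrupt (Ab) peaks, so the presence of peaks in a window is no independent evidence about its gene.

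The *odd-skipped* family is named after *odd*, a pair-rule gene that patterns alternate segments of the fly embryo. Its products work downstream of Notch signalling in the forming joints of the leg, and *drm* and *bowl* also act at the margin of the eye disc, where retinal development starts. Bowl is a transcription factor that is held back by the protein Lines, and Drm binds Lines and thereby frees Bowl. ElB and Noc are related zinc finger proteins of the NET family that act in branching of the tracheae and in the appendages, and both are made by progenitor cells of the eye disc. Ab, the protein that was pulled down, is itself a zinc finger transcription factor with a BTB domain.

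The tissue was the eye/antennal imaginal disc, the larval epithelium that forms the adult eye, antenna and head capsule, taken at about day 5 after egg laying. In *scrib1*+*ab* discs the clones were homozygous for *scrib1* on FRT82B, which removes the cell polarity regulator Scribbled, and overexpressed *ab* from UAS-ab55. In *ab* discs the clones overexpressed *ab* alone. Both kinds of disc were mosaics made with *ey-FLP*, so clones and wild type cells entered each extract together, and the polyclonal rabbit antibody does not tell overexpressed Ab from the fly's own. Each library held 3 to 6 pooled immunoprecipitations of about 100 discs each, and each genotype had 1 ChIP library and 1 input library. With 1 library per genotype no value has a replicate error and no test between genotypes was possible, so every difference below is one between these libraries. The lists place each peak by chromosome arm and by start and end on dm3, with a score that is 1 throughout, and they hold no gene expression values, so the labelled tissue could not be checked against marker genes. The read depth behind a peak is unknown from the lists, and its length in bp was the only graded measure. Intervals in brackets are exact 95% intervals for shares and order statistic 95% intervals for medians. They cover counting error only, and they treat neighbouring peaks as independent, although adjacent peaks may be pieces of one bound region.

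Most of these regions held more Ab peaks per kb than arm 2L as a whole, and they differed widely among themselves. The *bowl* window (16.2 kb) held 15 peaks in each sample, 9.28 per 10 kb, against 0.844 *scrib1*+*ab* and 0.675 *ab* peaks per 10 kb between the outermost peaks of arm 2L. The stretch from *drm* to *odd* (53.3 kb) held 37 *scrib1*+*ab* peaks and 20 *ab* peaks, or 6.94 and 3.75 per 10 kb. The stretch from *elB* to *noc* (73.9 kb) held 21 *scrib1*+*ab* peaks and 17 *ab* peaks. The gene windows other than *bowl* held few peaks. The *drm* window (13.3 kb) had 3 in *scrib1*+*ab* and 2 in *ab*, the *noc* window (9.19 kb) had 3 in each sample and the *elB* window (30.7 kb) had 2 in each. The *odd* window (3.79 kb) had 2 in *scrib1*+*ab* and 0 in *ab*. At 0.651 peaks per 10 kb the *elB* window was the only region that lay below the arm's density in both samples.

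**Figure D1:**
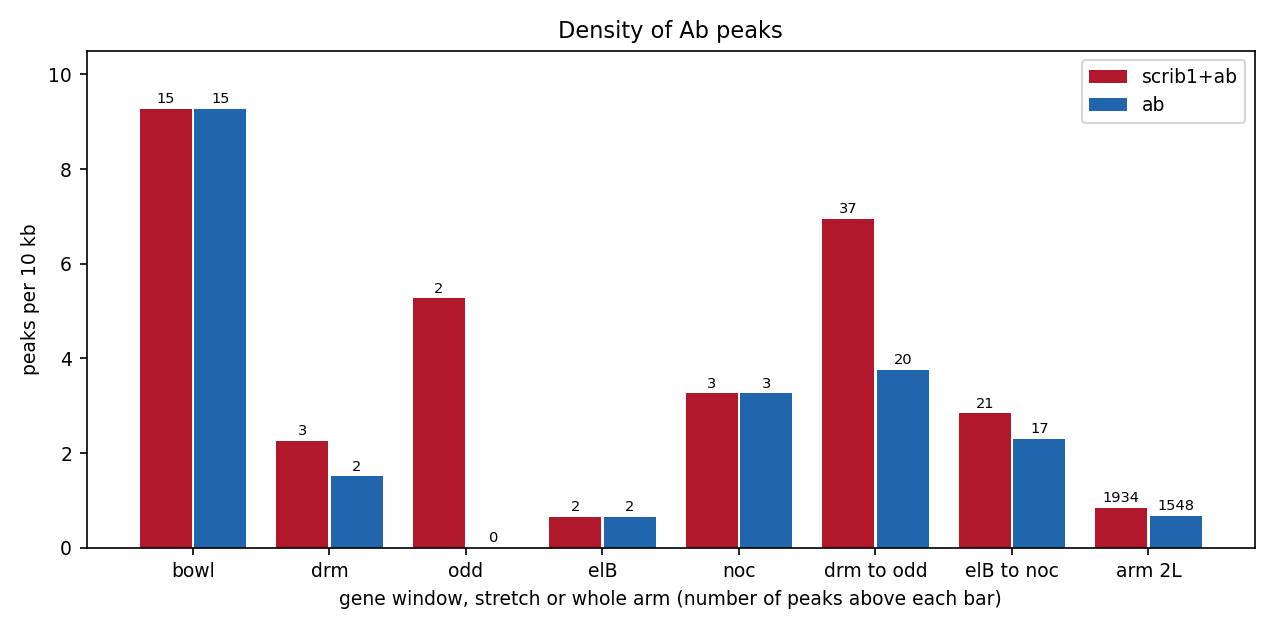
Ab peaks per 10 kb (vertical axis) in each gene window, each stretch and the whole of arm 2L, with *scrib1*+*ab* in red to the left of *ab* in blue and the number of peaks above each bar. *bowl* stands highest at 9.28 per 10 kb in both samples, and the stretch from *drm* to *odd* has 37 *scrib1*+*ab* and 20 *ab* peaks, or 6.94 and 3.75 per 10 kb.

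To place these densities within the arm, arm 2L was divided into consecutive pieces of the same length as a region. Of 1419 pieces as long as the *bowl* window, 3 (0.211%) held at least 15 *scrib1*+*ab* peaks and 3 (0.211%) held at least 15 *ab* peaks. Of 430 pieces as long as the stretch from *drm* to *odd*, 0 (0%) held at least 37 *scrib1*+*ab* peaks and 6 (1.4%) held at least 20 *ab* peaks. This stretch itself lies on the arm, so the count of 0 means that the borders of the pieces split it. Other dense groups may be split in the same way. The shares therefore depend on where the pieces start, and 0% does not mean that the stretch has no equal. The stretch from *elB* to *noc* was less unusual, since 17 of 310 pieces of its length (5.48%) had at least its 21 *scrib1*+*ab* peaks and 17 (5.48%) at least its 17 *ab* peaks. These shares describe the arm and are not tests, because the genes were chosen with peaks in view.

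The share of *scrib1*+*ab* peaks that met an *ab* peak was 80% at *bowl* and 41.4% over both stretches. A peak was called shared if it had at least 1 bp in common with a peak of the other sample, which held for 58.2% of all *scrib1*+*ab* peaks and 59.1% of all *ab* peaks. In the windows and stretches 40 of 83 *scrib1*+*ab* peaks (48.2%, 37.1 to 59.4%) and 35 of 59 *ab* peaks (59.3%, 45.7 to 71.9%) were shared, and both intervals include the share over all arms. For *scrib1*+*ab* this rested on *bowl*, since without its peaks the share was 41.2% (29.4 to 53.8%), an interval that lies below 58.2%. However, *bowl* was left out after seeing the data. Its share was 80%, so the share of the remaining peaks had to fall. The interval without *bowl* is therefore no test against 58.2%. At *bowl* 12 of 15 *scrib1*+*ab* peaks (51.9 to 95.7%, which includes 58.2%) and 10 of 15 *ab* peaks were shared. In the stretch from *drm* to *odd* 16 of 37 *scrib1*+*ab* peaks and 14 of 20 *ab* peaks were. In the stretch from *elB* to *noc* 8 of 21 *scrib1*+*ab* peaks and 8 of 17 *ab* peaks met a peak of the other sample. Over the 5 gene windows 64% of *scrib1*+*ab* peaks (16 of 25, 42.5 to 82%) and over both stretches 41.4% (24 of 58, 28.6 to 55.1%) were shared. These intervals overlap each other, and the one of the stretches lies below the share over all arms. Of the 58 *scrib1*+*ab* peaks of the stretches, 21 were under 40 bp, against 6 of 25 in the gene windows. Over the windows and stretches 5 of 27 *scrib1*+*ab* peaks under 40 bp were shared, against 743 of 2538 over all arms. With only peaks of at least 40 bp the *scrib1*+*ab* share over the windows and stretches was 62.5% (48.55 to 75.08%). This value has no matching background, because the share over all arms was not computed for peaks of that length. It cannot be set against 58.2%, since short *scrib1*+*ab* peaks were shared less often over all arms too (29.28%). The bases covered in both samples made up 33.5% of the bases covered in either, against 34.3% over all arms.

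The *scrib1*+*ab* peaks were more numerous and shorter. Their median length was 68 bp (50 to 89), against 134 bp (112 to 162) for *ab* peaks, and over all arms the medians were 69 bp in *scrib1*+*ab* and 151 bp in *ab*. The bases covered therefore ran the other way from the numbers, with 7959 bp in *scrib1*+*ab* and 10523 bp in *ab*. Peaks under 40 bp, the read length set in the peak caller, made up 27 of 83 *scrib1*+*ab* peaks (32.5%, 22.6 to 43.7%) and 0 of 59 *ab* peaks, which allows a share of up to 5.08% when the limit is set at 3 counts of the total. Among peaks of all arms, 23.3% in *scrib1*+*ab* and 2.65% in *ab* were as short. Leaving them out, 56 *scrib1*+*ab* peaks and 59 *ab* peaks remained in the windows and stretches, so the higher number in *scrib1*+*ab* was not present among peaks of 40 bp or more. The same held over all arms, where 8354 of 10892 *scrib1*+*ab* peaks and 8646 of 8881 *ab* peaks remained. This turn was therefore not particular to these regions. In the stretch from *drm* to *odd* 23 *scrib1*+*ab* peaks and 20 *ab* peaks were of 40 bp or more.

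**Figure D2:**
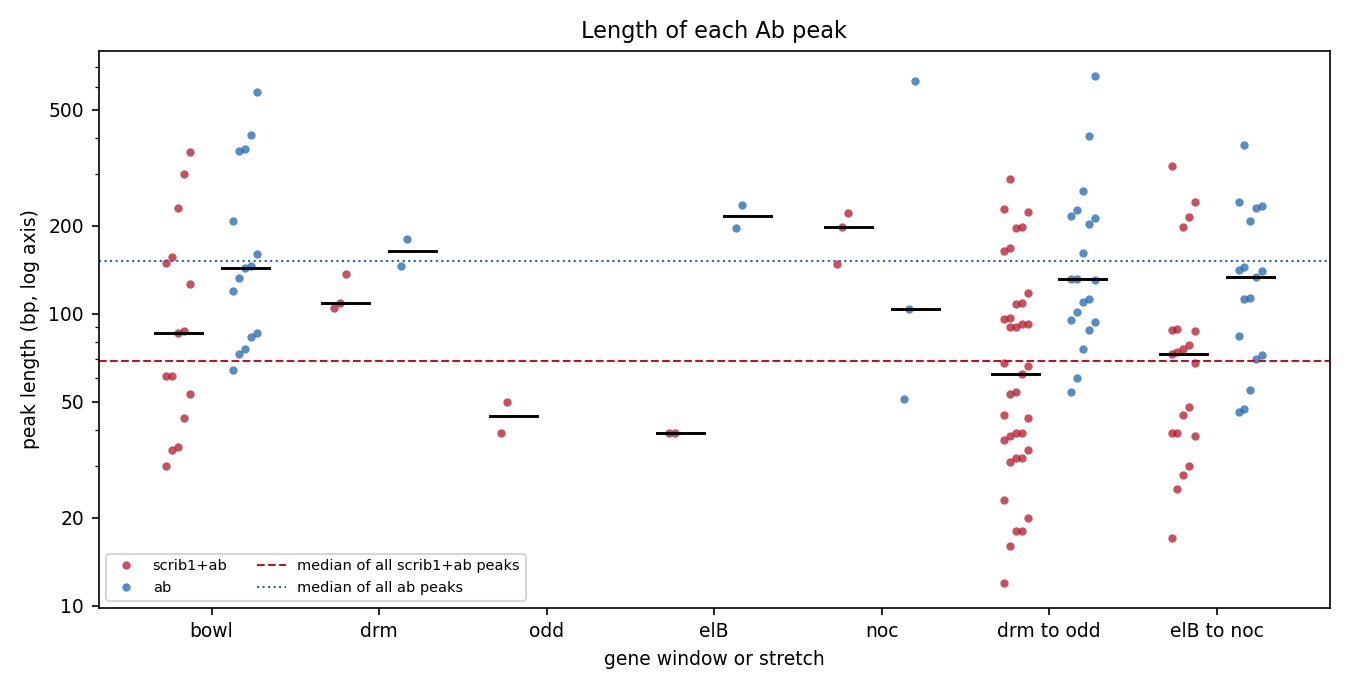
Length of every Ab peak (bp, log axis) by gene window or stretch, 1 point per peak, with *scrib1*+*ab* in red to the left of *ab* in blue. Black bars are medians and the horizontal lines are the medians over all arms, 69 bp in *scrib1*+*ab* and 151 bp in *ab*; points under 40 bp are seen in *scrib1*+*ab* alone.

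*bowl* carried the most peaks of the 5 genes, and they followed its start sites and the 5′ part of its long intron. The gene is drawn on the plus strand of 2L from 3771214 to 3784136 (dm3) with 8 transcripts and 5 distinct start sites. At the most upstream start, a 410 bp *ab* peak (3770999 to 3771408) was met by *scrib1*+*ab* peaks of 35, 86 and 30 bp, all of which lay inside it. The next 3 start positions all lay inside the *ab* peak of the longest pair at the gene, a 358 bp *scrib1*+*ab* peak (3771720 to 3772077) and a 575 bp *ab* peak (3771502 to 3772076), with 357 bp in common. Their downstream ends were 1 bp apart, and the *ab* peak reached further upstream.

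Further into *bowl* the peaks of both samples again overlapped at most places. A 302 bp *scrib1*+*ab* peak (3772953 to 3773254) lay wholly within a 367 bp *ab* peak (3772915 to 3773281), their midpoints 5.5 bp apart, and a 230 bp *scrib1*+*ab* peak lay wholly within a 360 bp *ab* peak (3773540 to 3773899). All of these stand in the long intron that follows the exon drawn at 3772462 to 3772703. A second group followed between 3775551 and 3776675, in the same intron, with 4 peaks in each sample of which 3 in each were shared. The last start site, at 3778944, had a 61 bp *scrib1*+*ab* peak centred 254 bp upstream of it, inside a 133 bp *ab* peak centred 228 bp upstream, and a further *ab* peak of 143 bp lay 48 bp before that one. In 10 of the 12 pairs at *bowl* the *ab* peak was the longer, but the *scrib1*+*ab* peak was the longer at 3772624 to 3772772 (149 bp, against 64 bp in *ab*) and at 3776288 to 3776413 (126 bp, against 76 bp in *ab*). Of the 15 peaks in each sample, 5 in *scrib1*+*ab* and 4 in *ab* touched a promoter region, defined as the start site and the 500 bp upstream of it, and 12 in *scrib1*+*ab* and 13 in *ab* touched an intron of at least 1 transcript. None in either sample touched a coding exon. Peaks found in 1 sample were a 61 bp, a 34 bp and an 87 bp peak in *scrib1*+*ab*, and peaks of 86, 73, 120, 143 and 160 bp in *ab*. The 87 bp peak was the only one beyond the 3′ end of the gene.

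**Figure D3:**
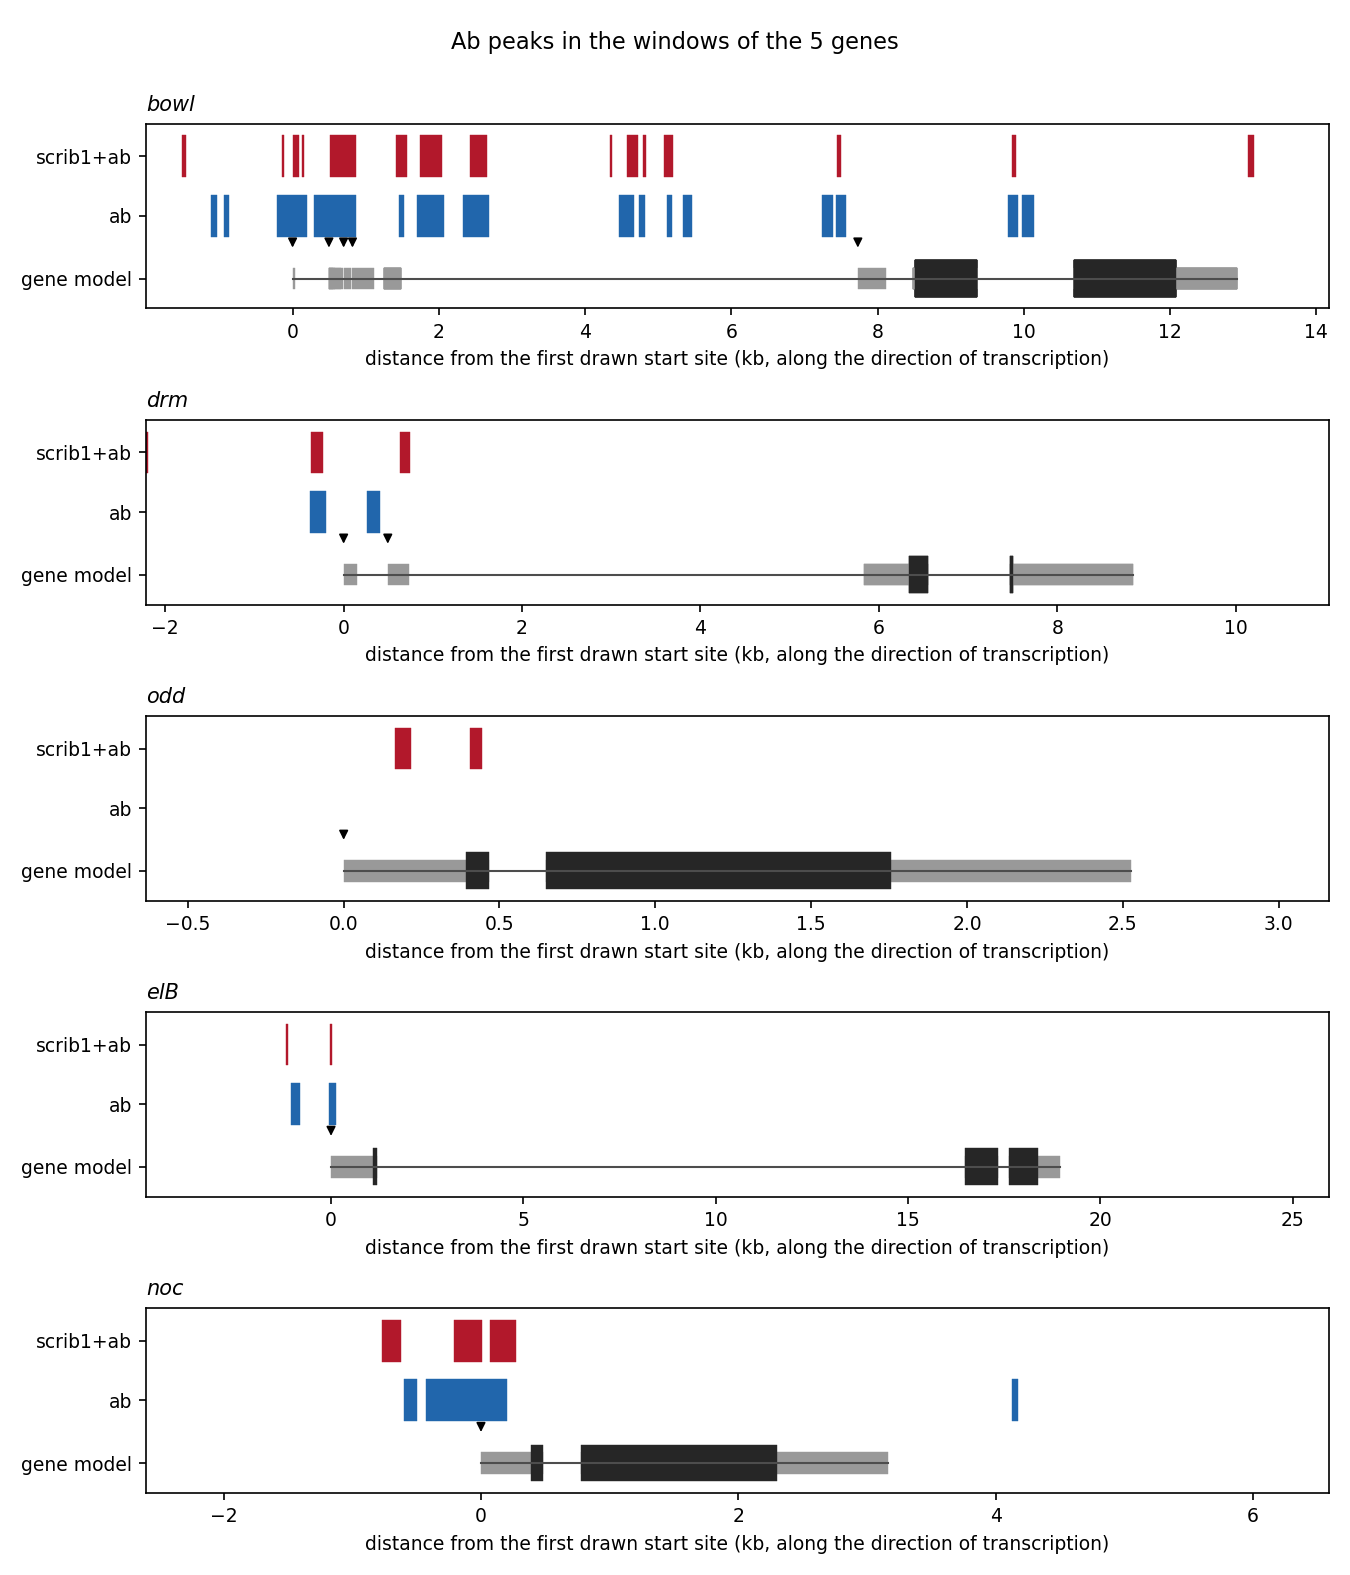
Ab peaks (bars) of *scrib1*+*ab* (red) above those of *ab* (blue) and the gene model as drawn by the study, by distance in kb from the first drawn start site along the direction of transcription. Gray boxes are untranslated exons, black boxes coding exons and arrowheads start sites; both samples have 15 peaks along *bowl*, while at *elB* all 4 peaks lie at or upstream of the start site and at *odd* the *ab* row is empty.

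*drm*, whose product frees Bowl from Lines, had 2 peaks of each sample within 1116 bp around its 2 start sites. It is drawn on the plus strand from 3539251 to 3548095, with starts at 3539251 and 3539746. The shared pair lay upstream of the first start, where a 137 bp *scrib1*+*ab* peak (3538883 to 3539019) was inside a 181 bp *ab* peak (3538876 to 3539056), their midpoints 15 bp apart. Near the second start the samples parted. The *scrib1*+*ab* peak (109 bp, 3539883 to 3539991) lay downstream of that start, over the first exon of the shorter transcript, and the *ab* peak (146 bp, 3539513 to 3539658) lay upstream of it, with 224 bp between them. The *scrib1*+*ab* sample had a further peak of 105 bp (3536950 to 3537054) that only reached into the window at its left edge, 1821 bp from the nearest *ab* peak. From 3539991 to the end of the window, 10304 bp that include the coding exons, there was no peak in either list. The list order also differed between the samples here. Within arm 2L the shared *drm* peak stood at place 396 of 1934 in *scrib1*+*ab* and at place 1185 of 1548 in *ab*, and the *ab* peak near the second start at place 1531. What sorts the lists is not given in the sources used here.

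*odd* was the only gene with no *ab* peak in its window. It is drawn on the minus strand from 3604221 to 3606749 with 1 intron. Both *scrib1*+*ab* peaks were short and lay in the first exon, a 50 bp peak (3606534 to 3606583) in its untranslated part and a 39 bp peak (3606304 to 3606342) in its coding part, with 191 bp between them. They stood late in the list of arm 2L, at places 1577 and 1648 of 1934. The nearest *ab* peak was 11833 bp away, in the stretch toward *drm*. Neither *scrib1*+*ab* peak touched the promoter region or the intron.

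Most peaks of the *drm* and *odd* neighbourhood lay between the genes rather than at them. In the reference gene table (Release 6 plus ISO1 MT, used for names and order only) this stretch holds 7 genes, 2 of them protein coding, *CG43815* and *sob*, and 5 lncRNA genes. *sob* is the fourth member of the *odd-skipped* family in flies, and which peaks lie nearest to it could not be said, since no dm3 annotation was used for it. Joining peaks of both samples that lay within 1000 bp of each other gave 13 clusters. The cluster with the most peaks, 3553702 to 3556708, began 3406 bp past the *drm* window and held 10 *scrib1*+*ab* and 4 *ab* peaks. Within it a 652 bp *ab* peak (3555114 to 3555765), the longest of all peaks in these regions, met *scrib1*+*ab* peaks of 164, 199 and 44 bp, and a 405 bp *ab* peak (3555997 to 3556401) held a 289 bp *scrib1*+*ab* peak (3556048 to 3556336) whole. Another close match lay at 3570319 to 3570546, where the 228 bp *scrib1*+*ab* peak was inside a 263 bp *ab* peak.

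The peaks of this stretch were most numerous near *drm* and fewest near *odd*. In 4 parts of equal length, counted from *drm*, *scrib1*+*ab* had 16, 8, 7 and 6 peaks, and *ab* had 7, 5, 6 and 2. The bases covered fell from part to part in both samples, with 1542, 830, 511 and 258 bp in *scrib1*+*ab* and 1666, 884, 662 and 313 bp in *ab*. In the part next to *odd* the samples differed in place. The *scrib1*+*ab* list had a group of 4 peaks of 68, 32, 66 and 23 bp between 3599086 and 3600540, and the nearest *ab* peak was at least 4615 bp from each of them. Across the whole stretch 21 *scrib1*+*ab* peaks and 6 *ab* peaks were found in 1 sample. Of the 14 *scrib1*+*ab* peaks under 40 bp, 2 met an *ab* peak.

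**Figure D4:**
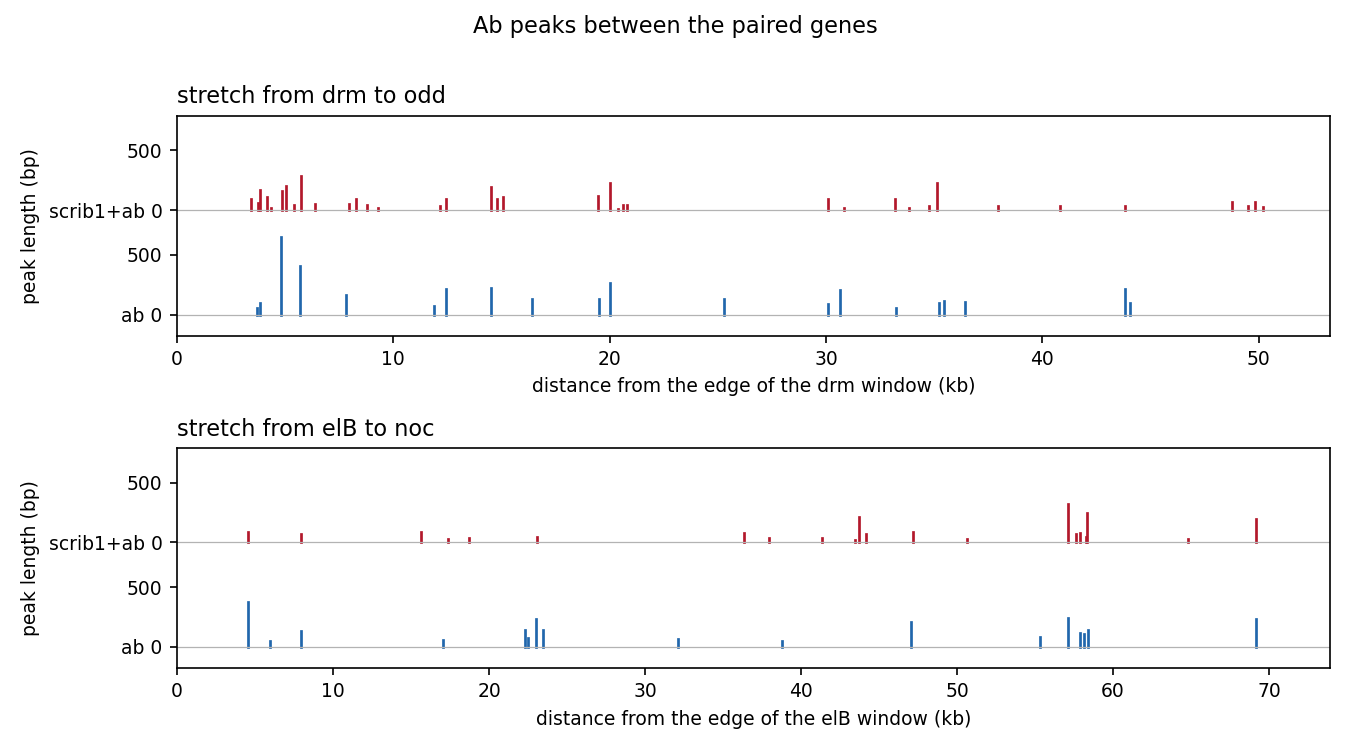
Ab peaks between the paired genes, as vertical lines whose height is the peak length in bp, by distance in kb from the edge of the *drm* window (top) and of the *elB* window (bottom), with *scrib1*+*ab* in red above *ab* in blue. The tallest *ab* line, 652 bp, stands in the group near *drm*, and the peaks nearest *odd* are short and present in *scrib1*+*ab* alone.

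*elB* had few peaks for its length, and all lay at its start or upstream. It is drawn on the minus strand from 14390626 to 14409565, a span of 18.9 kb with 1 start site. At the start a 39 bp *scrib1*+*ab* peak (14409546 to 14409584) lay inside a 196 bp *ab* peak (14409435 to 14409630). The panel resolves 25.5 bp per pixel, so the side of the start on which the short peak lies is not settled. About 1 kb upstream, a second 39 bp *scrib1*+*ab* peak (14410695 to 14410733) and a 236 bp *ab* peak (14410361 to 14410596) lay 98 bp apart with no base in common. Both *scrib1*+*ab* lengths equal the commonest length of that list, 39 bp, which 755 of its 10892 peaks (6.93%) and 130 of 8881 *ab* peaks (1.46%) have. The introns and coding exons of *elB* held no peak in either list.

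*noc*, the partner of *elB* in the NET family, had long peaks at its start site in both samples. It is drawn on the plus strand from 14490859 to 14494023. A 629 bp *ab* peak (14490431 to 14491059) spanned the start, and it was met by a 222 bp *scrib1*+*ab* peak (14490648 to 14490869) that lay inside it and by a 199 bp *scrib1*+*ab* peak (14490932 to 14491130) of which 128 bp lay inside it. These 2 *scrib1*+*ab* peaks had 62 bp between them. Only 11 bp of the 222 bp peak lie in the drawn first exon. The panel resolves 7.63 bp per pixel, so whether that peak crosses the start is not settled. Upstream, a 148 bp *scrib1*+*ab* peak (14490091 to 14490238) and a 104 bp *ab* peak (14490259 to 14490362) lay 20 bp apart and were not shared. The remaining *ab* peak, 51 bp, lay past the 3′ end at 14494985 to 14495035 and was 3854 bp from any *scrib1*+*ab* peak. Both samples thus had longer peaks at the start of *noc* than at that of *elB*.

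The stretch between *elB* and *noc* had scattered peaks with 1 dense group. It holds 8 genes by order in the reference table, among them the protein coding *Pburs*, which encodes a subunit of the hormone bursicon, *Cpr35B*, a cuticle protein gene, and *CG15283*. Peaks of both samples joined within 1000 bp gave 18 clusters. The cluster with the most peaks, 14471496 to 14472960, held 5 *scrib1*+*ab* and 4 *ab* peaks, and its first pair, a 321 bp *scrib1*+*ab* peak (14471496 to 14471816) over a 242 bp *ab* peak (14471508 to 14471749), was longer in *scrib1*+*ab*. The same held at 14472719 to 14472960, a 242 bp *scrib1*+*ab* peak around a 141 bp *ab* peak. The peaks closest to each gene window were shared, with 88 bp in *scrib1*+*ab* and 378 bp in *ab* on the *elB* side, and 199 bp in *scrib1*+*ab* and 234 bp in *ab* on the *noc* side. A group between 14436661 and 14437933 had 1 *scrib1*+*ab* peak of 48 bp and 4 *ab* peaks of 145, 72, 230 and 140 bp.

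Over all regions 40 pairs of overlapping peaks were found. The *scrib1*+*ab* peak was the longer in 9 of them (22.5%), against 14.6% of 6433 pairs over all arms, and it lay wholly inside the *ab* peak in 19 (47.5%), against 56.4%. The median ratio of lengths, *scrib1*+*ab* over *ab*, was 0.587, against 0.485 over all arms. The midpoints of a pair were a median of 29.8 bp apart, against 42.5 bp over all arms and a fragment length of about 500 bp. Of the 35 shared *ab* peaks, 3 met 2 or 3 *scrib1*+*ab* peaks each. They lay at the most upstream start of *bowl*, at the start of *noc* and in the group past *drm*. Over all arms 978 of 5252 shared *ab* peaks met 2 or more *scrib1*+*ab* peaks, so such cases were not particular to these regions.

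**Figure D5:**
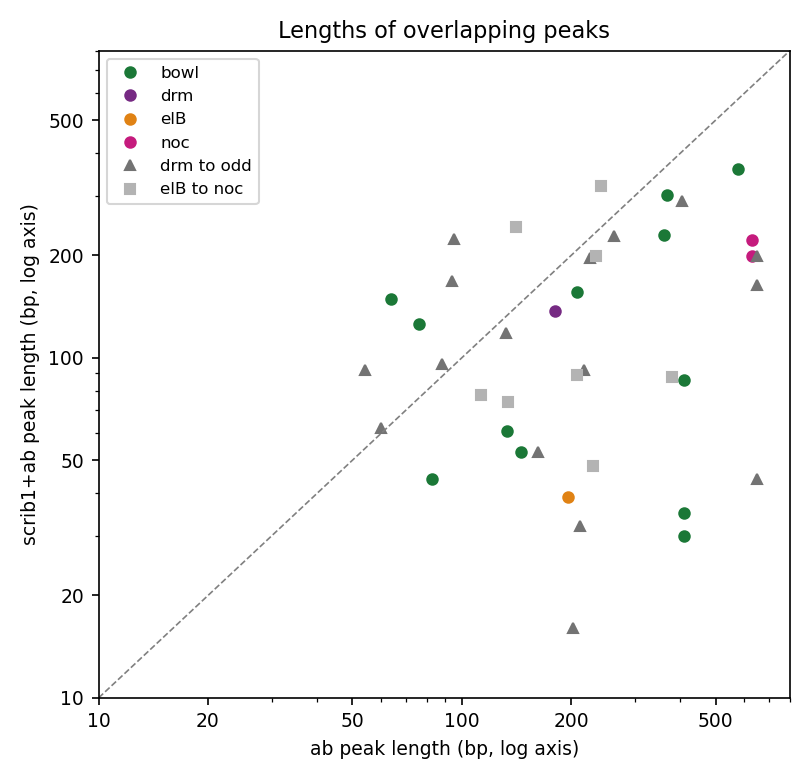
Lengths of the 40 overlapping pairs, with the *scrib1*+*ab* peak on the vertical axis and the *ab* peak on the horizontal axis (bp, log axes), by gene window (circles) and stretch (triangles and squares). The dashed line marks equal lengths, and 9 pairs lie above it; an *ab* peak that met several *scrib1*+*ab* peaks gives a column of points.

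Peaks found in 1 sample were shorter than shared ones, as they were over all arms. In *scrib1*+*ab* the 43 such peaks had a median length of 39 bp, against 107 bp for the 40 shared ones. Over all arms these medians were 48 and 94 bp. In *ab* the 24 such peaks had a median of 107 bp, against 203 bp for the 35 shared ones. Over all arms they were 104 and 196 bp. The other sample had a peak within 500 bp of 19 of the 43 *scrib1*+*ab* peaks (44.2%) and of 14 of the 24 *ab* peaks (58.3%). Over all arms 40.7% of single-sample *scrib1*+*ab* peaks and 43.1% of single-sample *ab* peaks had such a neighbour.

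Between neighbouring peaks of a gene window the median gap was 400 bp (191 to 1307, 20 gaps) in *scrib1*+*ab* and 278 bp (93 to 730, 18 gaps) in *ab*, and 14 gaps of each sample come from *bowl*. Over arm 2L the medians were 1055 bp in *scrib1*+*ab*, which is inside the interval of the windows, and 2063 bp in *ab*, which is above it. A gap inside a window cannot exceed the window, and the peak-free ends of a window are not counted. Gaps over the arm reached 445496 bp in *scrib1*+*ab* and 301463 bp in *ab*. The windows thus lean to shorter gaps by construction, and closer spacing than on the arm cannot be read from these medians. The order of the samples within the windows turned when peaks within 100 bp were joined, to 546 bp in *scrib1*+*ab* and 623 bp in *ab*. In the stretch from *drm* to *odd* the *scrib1*+*ab* gaps had a median of 370 bp (258 to 638) and the *ab* gaps one of 1674 bp (393 to 2946), and in the stretch from *elB* to *noc* the medians were 2514.5 bp in *scrib1*+*ab* and 1843 bp in *ab*.

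The study took a gene as a possible target if a peak touched its promoter region or one of its introns. By this rule *bowl*, *drm*, *elB* and *noc* had a call in each sample and *odd* in neither. The calls describe the place of peaks given above and add no measurement. The share of all genes with such a call, and of all peaks in promoter regions, introns or exons, was not computed, because no dm3 annotation was used here, so these counts have no background. If exons were counted too, *odd* also had a call in *scrib1*+*ab*. Of the 25 *scrib1*+*ab* peaks in the gene windows, 8 touched a promoter region, 13 an intron and 1 a coding exon. Of the 22 *ab* peaks, 9 touched a promoter region, 14 an intron and 0 a coding exon. The *scrib1*+*ab* call of *elB* rests on the 39 bp peak at its start, and it is lost if the gene model is moved by 1 pixel to the right, if peaks under 40 bp are left out, or if only the longer 50% of the list is kept, and in each case *bowl*, *drm* and *noc* had the remaining calls.

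Notch pathway genes with panels of their own can be set beside these counts. Their panels were also drawn by the study for selected genes, so they are no neutral scale. Per 10 kb, the window of the receptor gene *N* had 6.21 *scrib1*+*ab* and 5.69 *ab* peaks and that of the ligand gene *Dl* 6.81 *scrib1*+*ab* and 4.68 *ab* peaks, against 9.28 in each sample at *bowl*. Per 10 kb, *drm* had 2.26 *scrib1*+*ab* and 1.51 *ab* peaks and *odd* had 5.27 *scrib1*+*ab* and 0 *ab* peaks. The *noc* window had 3.265 in each sample and the *elB* window 0.651 in each. All of these lay below *N* and *Dl*. The window of the ligand gene *Ser* held 4 *scrib1*+*ab* and 3 *ab* peaks, or 1.84 and 1.38 per 10 kb. That of *Su(H)*, the pathway's DNA-binding factor, held 1 *scrib1*+*ab* peak, or 1.74 per 10 kb, and 0 *ab* peaks.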

How the data were processed

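Mosaic discs of both genotypes were used by the authors for ChIP-Seq of Ab. Bowtie (version not given in the sources used here) placed the reads on dm3, and PeakSeq then called peaks in each sample against its normalised input. The score that the authors deposited is 1 for every peak, so with the lists alone peaks could not be ranked or filtered by strength. Starts were converted to positions counted from 1.

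Windows and gene models were read from the study's panels of the 5 genes, at 3.15 to 25.5 bp per pixel, and the number of bars drawn equalled the number of peaks listed in each window. All 5 gene names were matched in the RefSeq table of Release 6 plus ISO1 MT, from which names and order only were taken. Members, regions and lists were chosen with earlier results of these data known. All 5 genes are described, and *sob*, *N*, *Dl*, *Ser* and *Su(H)* as related genes; *lin* was not placed on dm3 and has no value here. Alternatives concerned joining, minimum length, overlap, place in the list, promoter length and the models. The overlap count was tested on simulated data. Signal profiles, input libraries and sequences were not analysed here. Panels were read with Pillow 12.0.0, statistics were computed with SciPy 1.17.1 and NumPy 2.4.6 under Python 3.11.15, and figures were drawn with Matplotlib 3.10.9.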

Additional observations from a re-analysis of the deposited data

How the results depend on the processing

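No paired analysis was possible because each genotype had 1 library and no result comes from a test. Of 62 alternatives, 43 left a count within 1.5 times its value or a share or median within its interval. The 8 that drop the stretches or *bowl* were chosen after seeing the data.

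The number of peaks in the windows and stretches, 83 in *scrib1*+*ab* and 59 in *ab*, became 44 in *scrib1*+*ab* and 35 in *ab* with peaks within 500 bp joined, 41 and 23 in the longer 50% of each list, 40 and 27 when peaks in the first 50% of an arm's list were kept, and 25 and 22 in the gene windows alone. The ratio of *scrib1*+*ab* to *ab* peaks was 1.41, and it turned to 0.949 with peaks of at least 40 bp. By construction that setting drops the 27 short peaks, all of them in *scrib1*+*ab*.

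The shared percentage of *scrib1*+*ab* and *ab* peaks became 22.9% and 32.2% with a reciprocal overlap of at least 50%, and 71.1% and 83.1% with a gap of up to 500 bp allowed. For *scrib1*+*ab* it was 62.5% with peaks of at least 40 bp and 64% in the gene windows alone. The median length was 107 bp in *scrib1*+*ab* and 203 bp in *ab* for shared peaks only, 94 bp in *scrib1*+*ab* with peaks of at least 40 bp, and 196 bp in *ab* with peaks within 100 bp joined. The number of genes with a call stayed between 3 and 5 in *scrib1*+*ab* and at 4 in *ab*, and the median gap stayed within its wide interval in each alternative run. The median gap in *scrib1*+*ab*, 400 bp, moved to 546 bp with peaks within 100 bp joined and to 625.5 bp between midpoints, and the one in *ab*, 278 bp, moved to 623 bp and 602.5 bp, so that joining turned the order of the samples. Without *bowl* the shared percentage was 41.2% in *scrib1*+*ab* and 56.8% in *ab*.

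The methods of the study give similar read totals for both ChIP libraries, but the lists hold neither reads nor enrichment, so the depth behind a single peak is unknown. Gene models are known to about 1 pixel.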
